A study of Mus musculus with 8 samples.

Results

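The inward rectifier potassium channel genes and the subunit genes of the ATP-sensitive potassium (KATP) channel were examined in hearts of HVCN1 null and WT mice. The group held 9 of the 39056 genes counted. Kcnj2, Kcnj12 and Kcnj14 encode Kir2 pore subunits, Kcnj3 and Kcnj5 encode Kir3 pore subunits, Kcnj8 and Kcnj11 encode Kir6 pore subunits, and Abcc8 and Abcc9 encode the sulfonylurea receptors. The genes were listed by name, and Kcnj14 was picked because its level was much higher in HVCN1 null hearts. Its difference between the genotypes is therefore given as a description without a test. The other 8 genes were tested.

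RNA was taken from hearts of 4 HVCN1 null mice (hearts 1 to 4) and 4 WT mice (hearts 5 to 8), with 1 poly-A library per heart. HVCN1, also called Hv1, is the voltage-gated proton channel encoded by Hvcn1. All mice were males 3 months old, on the C57BL/6 background as far as the methods state it. The labels name a knockout of the Hv1 gene with no further treatment, and no driver or cell type that would restrict it. The values are counts of reads per gene, and CPM gives a gene's count relative to the TMM-scaled total of its library. A positive log2 fold change stands for a higher level without HVCN1, and a gene was called changed at an adjusted p under 0.05.

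Total counts ran from 25851255 to 38874640 per heart, and mitochondrial genes took 23.7% to 30.2% of them. Hvcn1 itself had 6, 6, 1 and 3 counts in the HVCN1 null hearts and 102, 49, 99 and 68 counts in the WT hearts, so every library matched its label. Summed over 7 cardiomyocyte markers, the level was 47289 to 59467 CPM in HVCN1 null hearts, beside 50070 to 59164 CPM in the WT group. The hearts differed strongly in atrial markers. Myl7, the atrial myosin light chain, was at 578 to 1185 CPM in hearts 2, 3, 5 and 7, and at 0.169 to 33.6 CPM in hearts 1, 4, 6 and 8. Both sets held hearts of both genotypes, but Myl7 still differed by genotype within the low set. There it was at 17 and 33.6 CPM in HVCN1 null hearts 1 and 4, and at 0.618 and 0.169 CPM in WT hearts 6 and 8. The channel genes known from the atria are therefore given below within these sets too.

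Inward rectifiers pass potassium more easily into the cell than out of it. In heart muscle, Kir2 subunits carry IK1, the current that holds the resting potential. Kir3 subunits form IKACh, the current that acetylcholine opens through a Gi-coupled receptor to slow the heart, and it is largest in the sinoatrial node and the atria. KATP channels join Kir6 pores with sulfonylurea receptors and open when ATP falls, and their makeup differs between atria, ventricles and vessels.

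The pore genes share a landmark, the potassium selectivity filter, and among those shown it separates the Kir6 genes from the others. The stretches below are 51 bases of coding sequence each, read from GENCODE M21 on GRCm38 and printed 5′ to 3′ on the coding strand, with the 3 filter codons in capitals. They are shown for 6 of the pore genes because they carry the feature that these share and the codon by which the subfamilies differ.
Kcnj14, chr7:45819615-45819665, minus strand: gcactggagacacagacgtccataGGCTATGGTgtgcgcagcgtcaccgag
Kcnj2, chr11:111072189-111072239, plus strand: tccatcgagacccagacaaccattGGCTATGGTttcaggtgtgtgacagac
Kcnj3, chr2:55437609-55437659, plus strand: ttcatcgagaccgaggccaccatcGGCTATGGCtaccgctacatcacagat
Kcnj5, chr9:32322541-32322591, minus strand: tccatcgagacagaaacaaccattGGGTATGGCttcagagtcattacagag
Kcnj8, chr6:142566430-142566480, minus strand: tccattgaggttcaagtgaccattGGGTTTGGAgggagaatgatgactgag
Kcnj11, chr7:46099478-46099528, minus strand: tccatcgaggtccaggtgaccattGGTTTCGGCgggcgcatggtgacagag
The middle codon reads tyrosine in the 4 Kir2 and Kir3 genes shown and phenylalanine in both Kir6 genes. Each stretch lies within 1 coding exon. Over the aligned coding bases, Kcnj14 was closest to Kcnj12 (70.8% identical) and Kcnj2 (64.5%), and shared 59.4% to 62% with the Kir3 and Kir6 genes. The other close relatives were Kcnj2 and Kcnj12 (72.9%), Kcnj8 and Kcnj11 (73.2%), Abcc8 and Abcc9 (69.9%), and Kcnj3 and Kcnj5 (66.9%).

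Among the Kir2 genes, Kcnj14 was far higher in HVCN1 null hearts and both major IK1 genes were not called changed. Kcnj14 (ENSMUSG00000058743, chr7:45816460-45824782, minus strand, GRCm38) encodes Kir2.4, first known from motor neurons of the brain stem. It was at 52.8, 44.7, 47.6 and 25 CPM in HVCN1 null hearts 1 to 4 and at 0.962, 1.67, 0.873 and 2.4 CPM in WT hearts 5 to 8. The lowest HVCN1 null heart, heart 4, stood well above the highest WT heart, heart 8. The means were 42.5 ± 12.2 CPM and 1.48 ± 0.71 CPM (SD, n = 4 hearts each), a ratio of 28.8 and a log2 fold change of 4.88 with a standard error of 0.34. These values rested on 5569 reads in the 4 HVCN1 null hearts and 196 reads in the 4 WT hearts. In the hearts with high Myl7 the log2 fold change of Kcnj14 was 5.64, and in the hearts with low Myl7 it was 4.28. Leaving out each heart in turn gave 4.70 to 5.21. These values describe the difference by which Kcnj14 was picked and carry no test.

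Kcnj2 and Kcnj12 encode Kir2.1 and Kir2.2, the main ventricular IK1 subunits. Kcnj2 (ENSMUSG00000041695, chr11:111066164-111076821, plus strand) was at 33.4, 41.3, 31.3 and 43.4 CPM in HVCN1 null hearts and at 32.1, 46.7, 43.2 and 44.8 CPM in WT hearts. Its highest and lowest hearts in each genotype interleaved, and the log2 fold change was -0.16 ± 0.14 (SE; edgeR quasi-likelihood test, adjusted p = 0.813). Kcnj12 (ENSMUSG00000042529, chr11:61022564-61071131, plus strand) was at 20.4, 24.6, 20.2 and 23.9 CPM in HVCN1 null hearts and at 20.1, 23.5, 26.6 and 27.3 CPM in WT hearts. Hearts 7 and 8 of the WT group were the highest, but WT heart 5 was the lowest of all 8. Its log2 fold change was -0.13 ± 0.11 (SE; edgeR, adjusted p = 0.812). The Kcnj12 to Kcnj2 ratio per length was 1.19 in HVCN1 null hearts, beside 1.16 in the WT group (difference of 0.03 in the mean log2 ratio, exact permutation test, two-sided, p = 0.743).

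**Figure D1:**
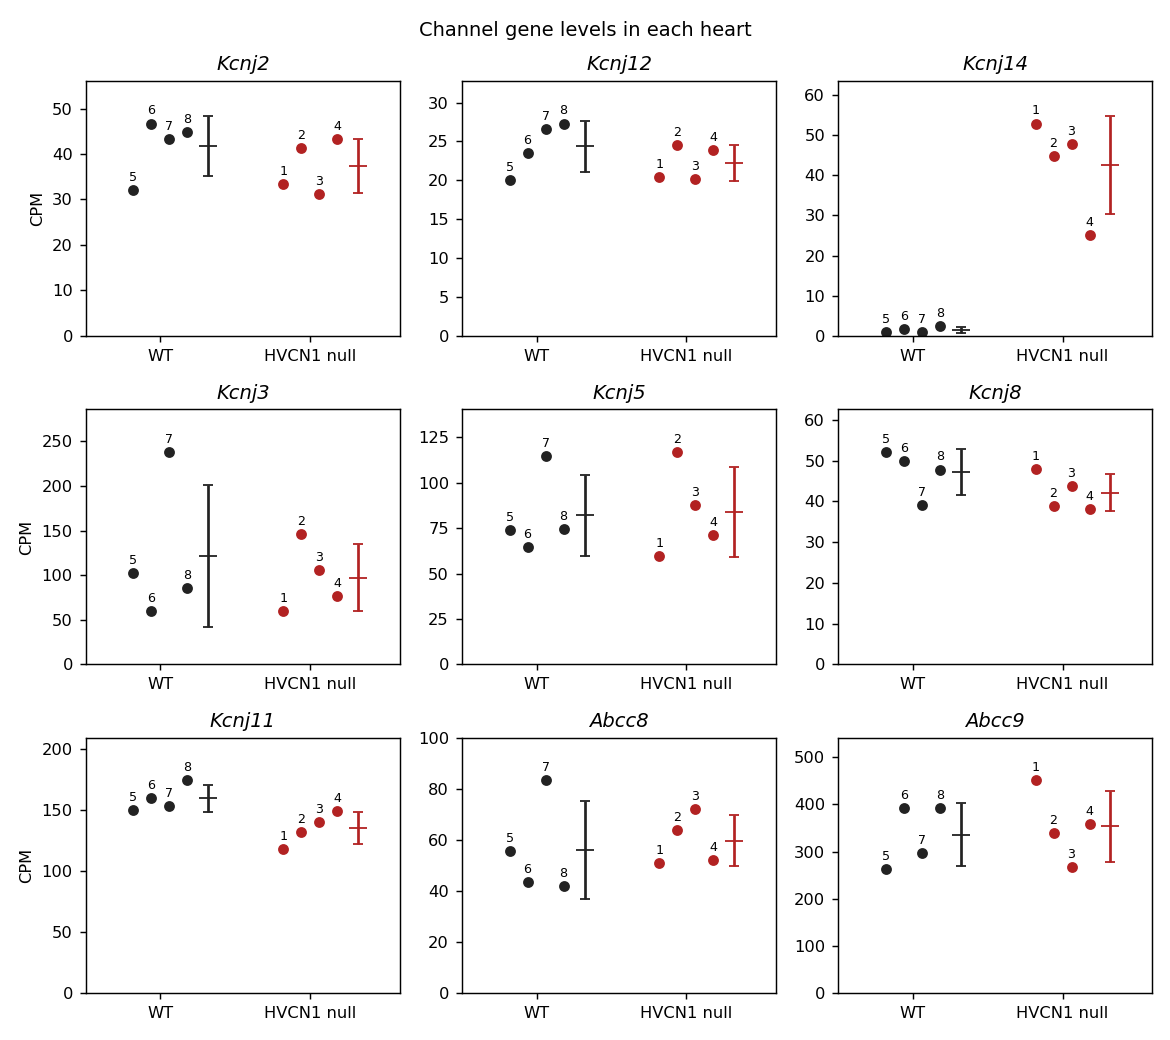
Level of each channel gene in CPM (vertical axis, from 0) in WT hearts (black, numbered 5 to 8) and HVCN1 null hearts (red, numbered 1 to 4), with the mean and SD of each group beside the points. Kcnj14 separates the groups by a wide gap, Kcnj11 by a narrow one, and the other 7 genes overlap.

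The makeup of Kir2 RNA differed in the same way. Of the summed CPM per kilobase of Kcnj2, Kcnj4, Kcnj12 and Kcnj14, Kcnj14 made up 57.4%, 48.7%, 55.4% and 34.8% in HVCN1 null hearts 1 to 4. In WT hearts 5 to 8 it made up 2.54%, 3.37%, 1.78% and 4.51%. Without Kcnj14 the Kir2 sum lay between 13.6 and 18.7 CPM per kilobase in all 8 hearts. With it, the sum was 26.5 to 33.9 in HVCN1 null hearts, beside 13.9 to 19.6 in the WT group. These shares use the same difference by which Kcnj14 was picked and carry no test. Shares of RNA say nothing of channel protein or current, which were not measured here.

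Reads of Kcnj14 can also be claimed by a near-identical copy elsewhere in the genome. Gm5522 (chr1:10805281-10806522, plus strand) is annotated as a processed pseudogene, and was found by its likeness to Kcnj14 over the hearts and by a sequence search. All 1242 of its bases aligned to bases 281 to 1522 of the 2681-base Kcnj14 transcript, with 11 mismatches and 0 gaps (99.1% identical). The match covers 95.4% of the Kcnj14 coding sequence and 46.3% of the transcript, and it runs across the junction of exons 2 and 3 without the intron. The selectivity filter stretch printed above occurs in Gm5522 without a difference. The 60 bases where the copies differ most are shown because they mark where reads could be told apart, with differing bases in capitals.
Kcnj14, transcript bases 281 to 340: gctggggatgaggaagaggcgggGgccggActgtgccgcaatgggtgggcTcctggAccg
Gm5522, bases 1 to 60: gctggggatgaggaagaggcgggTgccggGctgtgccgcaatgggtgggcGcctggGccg
With the Kcnj14 base first and positions counted from 1 at the 5′ end of its transcript, these differences are G304T, A310G, T331G and A337G. Gm5522 had 19, 15, 14 and 14 counts in the HVCN1 null hearts and 0 in each WT heart. That is at least 22-fold higher in HVCN1 null hearts, against a floor of 3 counts over the WT group. In the HVCN1 null hearts it came to 1.08%, 0.898%, 1.12% and 1.58% of the Kcnj14 counts. How the counting treated reads that align in both places is not given in the sources used here, so the Kcnj14 level is uncertain by the reads that the copies share. The counts of Gm5522 and their fold are uncertain in the same way, since they may hold reads of Kcnj14. Whether Gm5522 itself is transcribed was not tested. No copy of this identity covered 80% or more of any channel gene's transcript.

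The surroundings of Kcnj14 on chromosome 7 were examined because Kcnj11 and Abcc8 lie there too, 269 kb and 280 kb away. Within 500 kb of Kcnj14, 36 other genes were tested and 3 of them (8.33%) were called changed, beside 1.14% of all genes tested. Ush1c, which encodes the scaffold protein harmonin, rose from 6.82 ± 1.44 to 19.7 ± 1.56 CPM (SD, n = 4 each; log2 fold change of 1.54, edgeR adjusted p = 0.00064). Bcat2, the mitochondrial branched-chain aminotransferase, rose from 103 ± 12.2 to 174 ± 33.4 CPM (log2 fold change of 0.75, edgeR adjusted p = 0.0417). Mamstr, a coactivator of MEF2 factors, fell from 7.1 ± 0.804 to 3.55 ± 0.687 CPM (SD, n = 4 each; edgeR adjusted p = 0.0162). Ush1c stayed past the threshold in all 18 alternatives. The adjusted p of Bcat2 rose to between 0.0679 and 0.106 in edgeR without any 1 of hearts 1, 3, 4, 5, 6, 7 or 8, and that of Mamstr to 0.0522 without heart 3 and 0.059 without heart 5. The genes directly beside Kcnj14 were not called. Cyth2, 1.88 kb away, had a log2 fold change of 0.29 ± 0.10 (SE; edgeR adjusted p = 0.26), and Grwd1, 0.441 kb from the Kcnj14 start, had 0.01 ± 0.13 (SE; edgeR adjusted p = 0.993). Groups did not overlap for 9 of the 36 genes (25%), beside 7.06% of all genes tested.

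**Figure D2:**
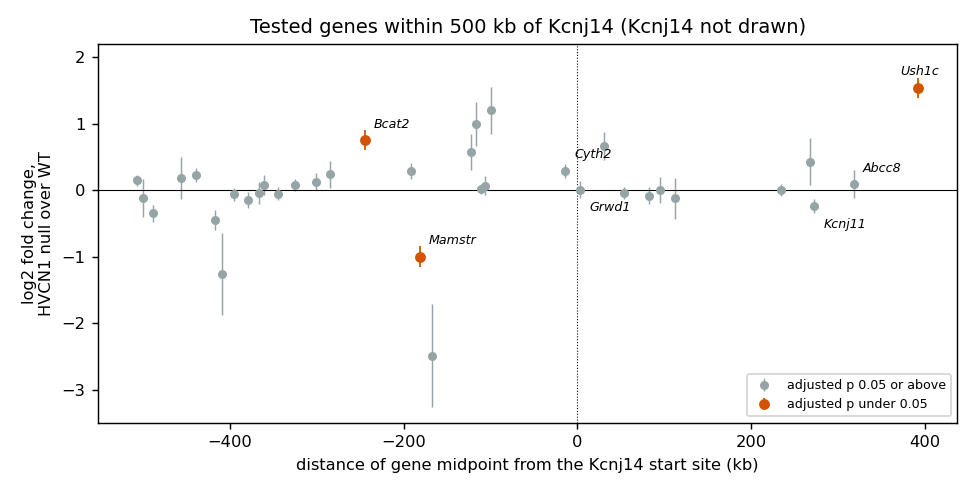
Log2 fold change with its standard error (vertical axis) of the 36 tested genes within 500 kb of Kcnj14, by the distance of their midpoints from its start site in kb. The called genes (orange) are Bcat2, Mamstr and Ush1c, and Cyth2 and Grwd1 next to Kcnj14 lie between 0.01 and 0.29.

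The genes whose pattern over the 8 hearts was most like that of Kcnj14 were Zfp949 (Pearson's r = 0.993), Tpm3-rs7 (0.987), Ush1c (0.984), Gm5522 (0.983) and Gm11868 (0.978), on log2 CPM. These values are a description, since any gene with a large gap between the genotypes scores high, and Gm5522 may share reads with Kcnj14. Tpm3-rs7 was at 14.1 CPM on average in HVCN1 null hearts, beside 0.437 CPM in the WT group, and Gm11868 at 2.78 and 0.117 CPM. Of these genes Ush1c alone lies on chromosome 7.

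The 8 channel genes other than Kcnj14 gave no call. In the edgeR quasi-likelihood test their adjusted p-values ran from 0.401 to 0.988, while 169 of the 14796 genes tested were called, 1.14 percent. At an unadjusted p under 0.05 there was 1 of the 8 genes, Kcnj11, beside 11 percent of all genes. DESeq2 and limma's voom also called 0 of the 8, each with 1 gene at an unadjusted p under 0.05. Of the 8, 3 had a positive and 5 a negative log2 fold change, where 47.3 percent of all genes were positive, with a median of -0.14 beside -0.01 over all genes tested. Groups did not overlap for 1 of the 8, Kcnj11, with the HVCN1 null hearts below. Over all genes tested 7.06 percent did not overlap, 3.6 percent with the HVCN1 null hearts above and 3.45 percent with them below.

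**Figure D3:**
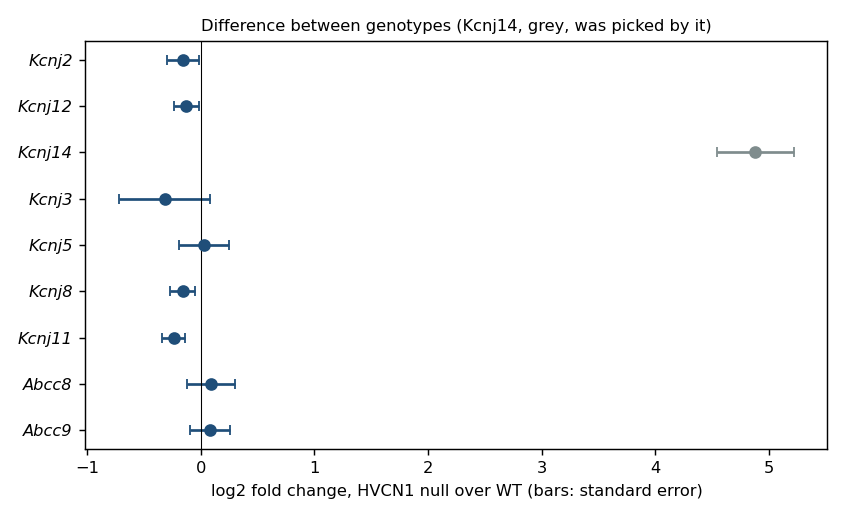
Log2 fold change, HVCN1 null over WT (horizontal axis), with its standard error for the 9 channel genes. Kcnj14 (grey) stands at 4.88 and was picked by this value, and the other 8 genes lie between -0.32 and 0.09.

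The Kir3 genes varied more between hearts of the same genotype than between genotypes. Kcnj3 (ENSMUSG00000026824, chr2:55435970-55598145, plus strand) encodes GIRK1, which needs a partner to reach the membrane as a working channel. It was at 60.3, 146, 106 and 77.1 CPM in HVCN1 null hearts and at 102, 59.4, 238 and 85.6 CPM in WT hearts. WT heart 7 was by far the highest, and the lowest values of both groups were alike. The means were 97.5 ± 37.7 and 121 ± 80 CPM (SD, n = 4 each), with a log2 fold change of -0.32 ± 0.40 (SE; edgeR, adjusted p = 0.884). Without WT heart 7 the log2 fold change turned to 0.25 (edgeR, adjusted p = 0.845).

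Kcnj5 (ENSMUSG00000032034, chr9:32314707-32344350, minus strand) encodes GIRK4, the cardiac partner of GIRK1. It was at 59.8, 117, 87.6 and 71.4 CPM in HVCN1 null hearts and at 74.2, 64.7, 115 and 74.8 CPM in WT hearts. Hearts 2 and 7, 1 of each genotype, stood at the top. The log2 fold change was 0.03 ± 0.22 (SE; edgeR, adjusted p = 0.988). The Kcnj3 to Kcnj5 ratio per length was 1.02 in HVCN1 null hearts, beside 1.18 in the WT group (difference of -0.22 in the mean log2 ratio, exact permutation test, two-sided, p = 0.514).

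The spread of Kcnj3 followed the atrial marker Myl7. The 4 hearts with the highest Myl7, in the order 7, 2, 3 and 5, were also the 4 hearts with the highest Kcnj3, in the same order. Kcnj3 was at 102 to 238 CPM in these hearts and at 59.4 to 85.6 CPM in the others. Sln, the atrial regulator of the SERCA pump, was at 99.7 to 242 CPM in the hearts with high Myl7 and at 0 to 5.28 CPM in the rest, with 0 counts in WT heart 8. Kcnj5 ran less evenly, at 74.2 to 117 CPM and 59.8 to 74.8 CPM. Summed over 11 atrial markers, levels ran from 386 to 4747 CPM in HVCN1 null hearts and from 159 to 8717 CPM in WT hearts, and 0 of the 10 tested were called by edgeR, DESeq2 or voom, also with 0 at an unadjusted p under 0.05. Not every atrial marker followed this split. Bmp10 was at 418 and 574 CPM in hearts 2 and 7 but at 0.038 and 0.152 CPM in hearts 3 and 5. Hearts 2 and 7 were also those with the highest Kcnj3 and Kcnj5. Gpr22 was highest in WT heart 8, at 32.2 CPM, a heart with low Myl7. Since the hearts fall into separate sets on markers such as Myl7 and Sln, no correlation over all 8 is given.

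The sets hold few hearts of each genotype. Those with high Myl7 are HVCN1 null hearts 2 and 3 and WT hearts 5 and 7. Those with low Myl7 are HVCN1 null hearts 1 and 4 and WT hearts 6 and 8. The log2 fold changes within the sets are therefore given as sizes only, and so few hearts cannot tell unlike sizes from their spread. Among the hearts with low Myl7, both HVCN1 null hearts had more Myl7 than both WT hearts. Genotype and atrial marker level cannot be told apart in that set. Among the hearts with high Myl7 the log2 fold change was -0.44 for Kcnj3 and 0.11 for Kcnj5. Among the hearts with low Myl7 it was -0.06 and -0.07. With the atrial marker score as a covariate it was -0.47 for Kcnj3 (edgeR, adjusted p = 0.309) and -0.10 for Kcnj5 (edgeR, adjusted p = 0.886). In bulk tissue, fewer cells of a type and less RNA per cell cannot be told apart, and which chambers entered each sample is not given in the sources used here.

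**Figure D4:**
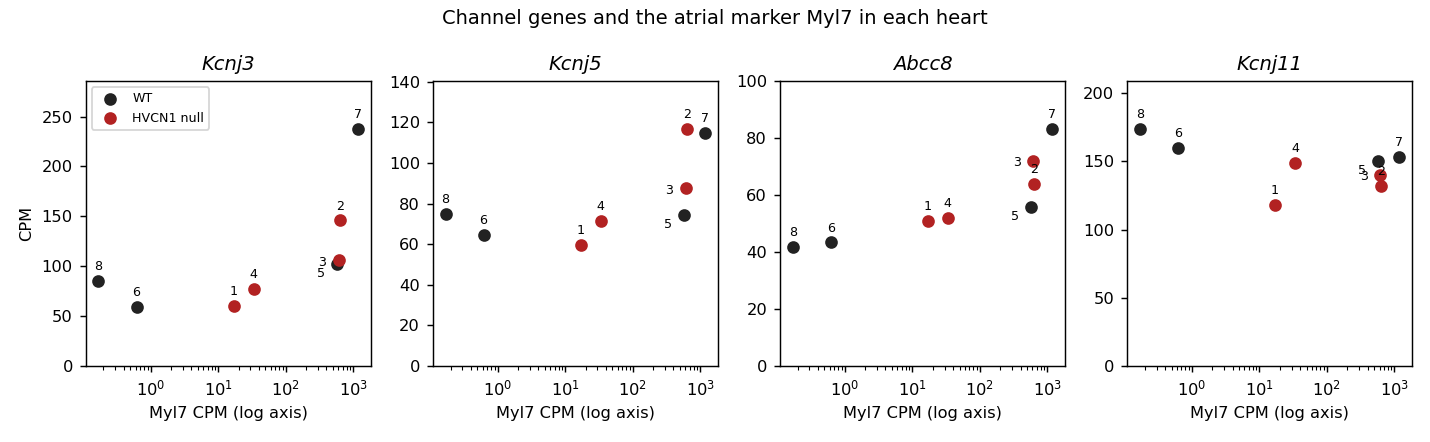
CPM of Kcnj3, Kcnj5, Abcc8 and Kcnj11 (vertical axes, from 0) against CPM of the atrial marker Myl7 (horizontal log axis) in each numbered heart, WT in black and HVCN1 null in red. Kcnj3 and Abcc8 are highest in the 4 hearts at the right, which belong to both genotypes, and Kcnj11 is not.

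The promoters of Kcnj3 and Kcnj5 are shown because these partner subunits both had their highest levels in hearts 2 and 7. These are 300 bases around the annotated start from RefSeq, GRCm38.p6, on the coding strand, where capitals mark a match to the T-box motif.
Kcnj3, chr2:55435720-55436019, plus strand: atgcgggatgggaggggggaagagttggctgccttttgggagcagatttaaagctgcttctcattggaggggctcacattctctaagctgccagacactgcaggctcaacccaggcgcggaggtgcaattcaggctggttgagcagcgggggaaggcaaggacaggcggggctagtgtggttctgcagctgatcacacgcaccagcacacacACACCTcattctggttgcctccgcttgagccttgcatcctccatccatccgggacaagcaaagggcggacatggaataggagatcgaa
Kcnj5, chr9:32344295-32344594, minus strand: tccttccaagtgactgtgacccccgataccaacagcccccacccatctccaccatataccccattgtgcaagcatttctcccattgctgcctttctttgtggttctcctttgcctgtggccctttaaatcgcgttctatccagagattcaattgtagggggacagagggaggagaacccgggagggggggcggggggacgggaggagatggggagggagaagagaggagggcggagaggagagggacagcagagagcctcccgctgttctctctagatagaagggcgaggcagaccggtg
Both strands were searched for AGGTGT, bound by T-box factors, AGATAA, bound by GATA factors, TATAAA, the TATA box, and the MEF2 motif. AGGTGT matched 1 time in the Kcnj3 promoter, on the opposite strand, and 1 time in that of Kcnj8. It is held by 13.7% of the 32851 promoters in the table. Of the 9 genes, 6 had a promoter there, and none of these 6 held any other of the 4 motifs, which occur in 11.2%, 13.6% and 0.353% of promoters. Kcnj14, Kcnj11 and Abcc8 had no entry.

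The KATP pore genes were both lower on average in HVCN1 null hearts, and neither was called. Kcnj11 (ENSMUSG00000096146, chr7:46093953-46100764, minus strand) encodes Kir6.2, the pore of the sarcolemmal KATP channel in heart muscle. It was at 118, 132, 140 and 149 CPM in HVCN1 null hearts and at 150, 160, 153 and 174 CPM in WT hearts. All 4 HVCN1 null hearts lay below all 4 WT hearts, with hearts 4 and 5 almost level. The means were 135 ± 13.4 and 159 ± 10.6 CPM (SD, n = 4 each), 15.3% lower without HVCN1. The difference had a log2 fold change of -0.24 ± 0.10 (SE; edgeR, unadjusted p = 0.0352, adjusted p = 0.401). With library sizes not scaled, the groups again did not overlap, at 120 to 147 CPM and 152 to 163 CPM. The log2 fold change of Kcnj11 was -0.16 among hearts with high Myl7 and -0.31 among the others.

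Kcnj8 (ENSMUSG00000030247, chr6:142564837-142571614, minus strand) encodes Kir6.1, the KATP pore of vascular smooth muscle and pericytes. It was at 47.9, 38.9, 43.8 and 38 CPM in HVCN1 null hearts and at 52.1, 49.9, 39 and 47.8 CPM in WT hearts. The groups overlapped through WT heart 7 and HVCN1 null heart 1. The log2 fold change was -0.16 ± 0.11 (SE; edgeR, adjusted p = 0.714). The Kcnj8 to Kcnj11 ratio per length was 0.451 in HVCN1 null hearts, beside 0.426 in the WT group (difference of 0.08 in the mean log2 ratio, exact permutation test, two-sided, p = 0.686).

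The sulfonylurea receptor genes did not separate the genotypes. Abcc9 (ENSMUSG00000030249, chr6:142587862-142702315, minus strand) encodes SUR2, the receptor of ventricular and vascular KATP channels. It was at 451, 339, 268 and 359 CPM in HVCN1 null hearts and at 262, 392, 296 and 393 CPM in WT hearts. HVCN1 null heart 1 was the highest, and the lowest heart was WT heart 5. The log2 fold change was 0.08 ± 0.18 (SE; edgeR, adjusted p = 0.945).

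Abcc8 (ENSMUSG00000040136, chr7:46104523-46180033, minus strand) encodes SUR1, known from pancreatic beta cells and from mouse atria. It was at 51.1, 63.9, 72 and 52.1 CPM in HVCN1 null hearts and at 55.7, 43.4, 83.4 and 41.9 CPM in WT hearts. As with Kcnj3, its 4 highest hearts were those with high Myl7, at 55.7 to 83.4 CPM, and the other 4 were at 41.9 to 52.1 CPM. Abcc9 had its lowest values in these same 4 hearts, at 262 to 339 CPM beside 359 to 451 CPM in the rest. Between genotypes the log2 fold change of Abcc8 was 0.09 ± 0.21 (SE; edgeR, adjusted p = 0.945), with -0.04 among hearts with high Myl7 and 0.29 among the others.

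The receptor balance varied from heart to heart. The Abcc8 to Abcc9 ratio per length was 0.176 in HVCN1 null hearts, beside 0.169 in the WT group (difference of 0.06 in the mean log2 ratio, exact permutation test, two-sided, p = 0.914). The log2 ratio ranged from -3.18 in WT heart 8 to -1.78 in WT heart 7. The Abcc9 to Kcnj11 ratio was 1.14 in HVCN1 null hearts, beside 0.914 in the WT group (difference of 0.32, exact permutation test, two-sided, p = 0.229). After adjustment over the 5 ratios tested, each of them had p = 0.914 by the permutation test, and the smallest p that 4 against 4 hearts allow is 0.0286.

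Kcnj8 was high in hearts with a high pericyte marker score. Over the 8 hearts, Pearson's r was 0.911 (exact permutation test, p = 0.00278, adjusted over 4 relations 0.0111) and Spearman's rho was 0.81 (permutation p = 0.0218, adjusted 0.0871). Without hearts 2 and 4, the farthest from the median score, r was 0.825 over the other 6 hearts (exact permutation test, p = 0.05), which is no longer under 0.05. On deviations from the genotype means r was 0.916 (exact permutation test, p = 0.00193). Abcc9 gave r = 0.0878 with the pericyte score (exact permutation test, p = 0.828), 0.117 with Kcnj8 (exact permutation test, p = 0.779) and -0.16 with Kcnj11 (exact permutation test, p = 0.708). Without hearts 3 and 5, the farthest from its median, Abcc9 gave r = 0.778 with Kcnj8 over the other 6 hearts (exact permutation test, p = 0.0847). On CPM its r with the pericyte score was 0.548 (exact permutation test, p = 0.16). These few hearts do not show that Abcc9 is unrelated to Kcnj8 or to the pericyte score. As given above, Abcc9 also differed between the sets of hearts by Myl7. Of 7 planned relations, 4 were tested, and the adjustment is over these 4. Left out were Kcnj3 with Kcnj5, and both with the atrial score, because the hearts fall into separate sets. No batch is given by the labels. Of the 8 pericyte markers, 1 was higher and 7 were lower in HVCN1 null hearts, where 47.3 percent of all genes were higher. Of these markers 0 were called by edgeR, DESeq2 or voom, where edgeR called 1.14 percent of all genes. At an unadjusted p under 0.05 (edgeR) there was 1, Cspg4, beside 11 percent of all genes. Cspg4 had the largest absolute log2 fold change, -0.45 ± 0.15 (SE; edgeR, adjusted p = 0.26), with all HVCN1 null hearts below all WT hearts. The summed level of the 8 markers was 746 to 1190 CPM in HVCN1 null hearts, beside 808 to 1023 CPM in WT hearts. All 7 smooth muscle markers had a positive log2 fold change, beside 47.3 percent of all genes, and 1 of the 7 was called, beside 1.14 percent. The 6 not called ran from 0.08 ± 0.24 for Tagln to 0.32 ± 0.11 for Smtn (SE), with overlapping groups in all of them but Smtn. The called gene was Acta2 (smooth muscle actin), with a log2 fold change of 1.32 (edgeR, adjusted p = 0.0466). Its call was lost in edgeR without any 1 of hearts 1, 3, 5, 6, 7 or 8, at adjusted p-values of 0.0628 to 0.149, and with voom, at 0.0518. The summed level of the 7 markers was 572 to 891 CPM in HVCN1 null hearts and 444 to 528 CPM in the WT group. Without Acta2, a sum added after seeing the data, it was 377 to 534 CPM and 361 to 403 CPM, so that the groups overlapped. The part of these cells in the Kcnj8 and Abcc9 levels was not tested.

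Levels of different genes were compared per kilobase of merged exons. In WT hearts the order was Kcnj11 (43.3 ± 2.87 CPM per kilobase, SD), Abcc9 (40.1 ± 8), Kcnj3 (23.3 ± 15.3), Kcnj8 (18.5 ± 2.25), Kcnj5 (17.5 ± 4.76), Kcnj12 (8.87 ± 1.19), Kcnj2 (7.66 ± 1.2), Abcc8 (6.93 ± 2.38) and Kcnj14 (0.543 ± 0.261). Among neighbours in this order, the ranges of the 4 hearts were apart between Kcnj5 and Kcnj12 and between Abcc8 and Kcnj14, and the other neighbours overlapped. In HVCN1 null hearts Kcnj14 stood sixth, at 15.7 ± 4.48 CPM per kilobase, overlapping Kcnj8 (16.5 ± 1.8) and apart from Kcnj12 (8.1 ± 0.835). Kcnj11 (36.6 ± 3.64) lay below Abcc9 (42.3 ± 9.02) there, with overlapping ranges. Divided by the longest transcript instead, Abcc8 moved above Kcnj12 in both genotypes, to 11.5 CPM per kilobase in the WT group and 12.3 without HVCN1.

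**Figure D5:**
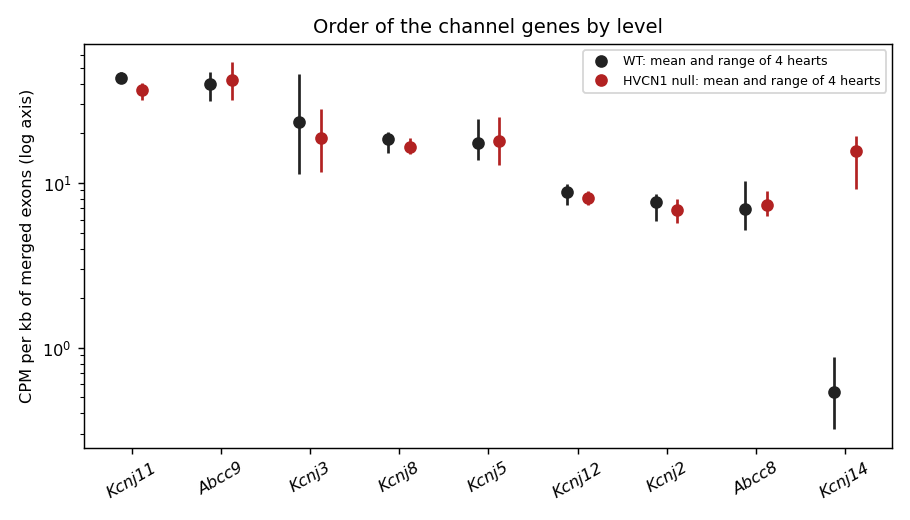
CPM per kilobase of merged exons (vertical log axis) of the 9 channel genes in the order of their WT level, with the mean and the range of 4 hearts, WT in black and HVCN1 null in red. Kcnj14 is last in WT hearts at 0.543 and reaches 15.7 in HVCN1 null hearts.

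Partly overlapping genes touch the values of a pair of members. Gm26794, on the opposite strand, shares 1621 bases or 31.1% of the merged exons of Kcnj3, and had at most 97 counts in a heart where Kcnj3 had 9015. A further opposite-strand gene, 5330439B14Rik, shares 158 bases or 1.89% with Abcc9. Whether the counting used the strand is not given in the sources used here.

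Of the other inward rectifier genes, 3 of 8 had enough counts for a test, and 0 were called by edgeR, DESeq2 or voom. All 3 had a positive log2 fold change, beside 47.3 percent of all genes. Kcnj15 was the highest of them, at 1.89 CPM on average in HVCN1 null hearts, beside 1.77 CPM in the WT group. Kcnj4, which encodes Kir2.3, was at 1.89, 1.71, 2.17 and 1.3 CPM in HVCN1 null hearts and at 0.734, 1.05, 0.291 and 1.11 CPM in WT hearts. Its groups did not overlap, and its log2 fold change was 1.15 ± 0.37 (SE; edgeR, unadjusted p = 0.01, adjusted p = 0.233). It was the 1 gene of this list at an unadjusted p under 0.05, beside 11 percent of all genes.

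The genes that act on or with these channels gave no call in edgeR either. DESeq2 called 1 of them, Apba1, and voom called 0. For the counts that follow, 47.3 percent of all genes tested had a positive log2 fold change. An unadjusted p under 0.05 in edgeR was reached by 11 percent of all genes. Of 20 receptors, G proteins and RGS proteins upstream of IKACh, 11 had a positive and 9 a negative log2 fold change, with a median of 0.03, 0 called by edgeR and 1 at an unadjusted p under 0.05. Rgs5, the most abundant, was at 613 ± 128 CPM in HVCN1 null hearts, beside 628 ± 87.3 CPM in the WT group (SD, n = 4 each). Rgs5 is also on the list of pericyte markers, where it was the most abundant too. Rgs10 had the largest absolute log2 fold change, -0.38 (edgeR, adjusted p = 0.537). Of 21 scaffold and trafficking partners, 8 were positive and 13 negative, with a median of -0.02, 0 called by edgeR and 2 at an unadjusted p under 0.05. Flna, the filamin that anchors Kir2.1 among others, was the most abundant at 233 ± 48.9 and 202 ± 12.3 CPM (SD, n = 4 each). Apba1, an adaptor of the Lin7 and Cask complex, had the largest absolute log2 fold change, -0.61 ± 0.15 (SE; edgeR, adjusted p = 0.101) and all HVCN1 null hearts below all WT hearts. With DESeq2 its adjusted p was 0.0135. Of 14 two-pore-domain background channel genes, 6 were tested, with 0 called by edgeR and 0 at an unadjusted p under 0.05. Kcnk3, which encodes TASK1, was the most abundant at 332 ± 29.2 and 352 ± 20.8 CPM (SD, n = 4 each), and Kcnk5 had the largest log2 fold change, 0.28 (edgeR, adjusted p = 0.782).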

How the data were processed

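Per the labels and the methods, the authors captured poly-A RNA from hearts, sequenced paired reads of 50 nt, aligned them with STAR to mm10 (GRCm38) and summarised them per gene by featureCounts. What was deposited are these raw counts per gene and heart, not normalized. The methods text names a human genome, whereas the gene identifiers are mouse. Of 39056 identifiers, 38872 (99.5%) matched GENCODE M21 without the version.

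edgeR 4.0.16 (R 4.3.3) turned the counts into CPM and log2 CPM, with TMM scaling and a prior count of 2. filterByExpr kept 14796 genes, which were tested with the quasi-likelihood test and Benjamini-Hochberg adjustment over all of them. The standard errors of log2 fold changes were derived from this test. Each is the absolute log2 fold change divided by the square root of the F statistic. The test was also run on counts simulated from the means, library sizes and dispersions of these data, with an outcome not reported here. DESeq2 1.42.0 and limma 3.58.1 (voom) were alternatives, beside other scalings, filters, an adjusted p under 0.01, an atrial score covariate (mean log2 CPM of the atrial markers) and each heart left out in turn. Log2 ratios of members and correlations had two-sided exact permutation tests, over 70 assignments and 40320 pairings. Near-identical copies were searched with BLAST+ 2.17.0. The filter stretch of 1 pore gene is not reported here. Figures were drawn with matplotlib 3.10.9.

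The members and gene lists were chosen with earlier results of these data known. Named genes are the 9 members, Hvcn1 and, per list, called genes, the most abundant gene and the one with the largest log2 fold change. Neighbours of Kcnj14 are named where called or adjacent, and the 5 most alike genes of Kcnj14 and of Kcnj3 are named. Gm26794, 5330439B14Rik, Kcnj4's heart values, Bmp10, Gpr22, Myl7 and the split of hearts at 100 CPM of Myl7 were chosen after values were seen. No replicate source beyond 1 library per heart is stated, so p-values measure the spread between these libraries. Replicates differed beyond counting noise in every pair.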

Additional observations from a re-analysis of the deposited data

Results flagged for a closer look

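The log2 ratio of Kcnj12 to Kcnj2 in WT heart 6 was -0.0033, far from the other 3 WT hearts at 0.27 to 0.31. The gap came to 0.858 of the range of the group, above Dixon's critical value of 0.829 for 4 hearts. In all 28 groups were examined in this way, and chance alone exceeds the limit in about 1 of 20. Kcnj2 was highest in this heart, at 46.7 CPM, while Kcnj12 was at 23.5 CPM.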

How the results depend on the processing

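Over 18 alternatives, 0 of the 8 channel genes other than Kcnj14 passed an adjusted p of 0.05, also with DESeq2 and voom. Kcnj2, Kcnj12, Kcnj8 and Kcnj11 kept their sign throughout. Kcnj14 was picked by its difference in these same hearts, so its range over the alternatives is a description and no support. It ranged from 4.28 to 5.64, the latter among the 4 hearts with Myl7 above 100 CPM. That split was added after seeing the data, as was its complement. The number of genes called, 169, became 468 with DESeq2, 56 at an adjusted p under 0.01, 71 without and 24 with only the hearts with high Myl7, and 71 to 152 with 1 heart left out (lowest without WT heart 6).

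Signs of uncalled values changed. With 1 heart left out the log2 fold changes ran from -0.58 to 0.25 for Kcnj3 (positive without WT heart 7), -0.17 to 0.24 for Kcnj5 (negative without hearts 2, 5, 6 or 8), -0.018 to 0.35 for Abcc8 (negative without hearts 3, 6 or 8) and -0.06 to 0.19 for Abcc9 (negative without hearts 1 or 5). Kcnj5 was -0.096 with the atrial covariate and -0.071 without the hearts with high Myl7, and Abcc8 was -0.041 among only those hearts. The differences in log2 ratio ran with 1 heart left out from -0.041 to 0.073 for Kcnj12 to Kcnj2, -0.39 to 0.0025 for Kcnj3 to Kcnj5, -0.044 to 0.18 for Kcnj8 to Kcnj11 and -0.16 to 0.32 for Abcc8 to Abcc9. Among only the hearts with high Myl7 they were -0.0025 for Kcnj12 to Kcnj2 and -0.12 for Abcc8 to Abcc9, and without those hearts 0.025 for Kcnj3 to Kcnj5. The r of the pericyte score with Kcnj8 was 0.82 without hearts 2 and 4, and that of Abcc9 with Kcnj8 was 0.78 without hearts 3 and 5. Grwd1, beside Kcnj14, ran from -0.092 to 0.076 with 1 heart left out and was -0.069 without the hearts with high Myl7. The cause of these changes was not tested. No paired analysis was possible because no replicate number occurs in both genotypes. Few reads stand behind some of the genes named, such as Gm5522, with 62 over all hearts, and Kcnj4, with 107 in the WT hearts.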

Other observations

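The genes most like Kcnj3 over the 8 hearts, on log2 CPM, were Col23a1 (Pearson's r = 0.987), Nudt4 (0.984), Cpe (0.982), Angpt1 (0.974) and Cdo1 (0.972), as a description of hearts that fall into sets by atrial markers. Angpt1, the angiopoietin that activates the endothelial receptor Tek, was at 17.1, 54.8, 44.3 and 31.3 CPM in HVCN1 null hearts and at 41.6, 22.3, 97.5 and 26.4 CPM in WT hearts. As with Kcnj3, heart 7 was the highest and heart 2 the next.

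Markers of the remaining cell types gave no call in edgeR or voom, and DESeq2 called 1 of them, Actc1. Of all genes tested, edgeR called 1.14 percent, and 47.3 percent had a positive log2 fold change, to be set beside the counts that follow. Of 7 endothelial markers, 2 had a positive and 5 a negative log2 fold change, with Cdh5 at 275 ± 37.7 and 271 ± 28.2 CPM (SD, n = 4 each). Of 7 fibroblast markers, 1 was positive and 6 negative. The positive one was Dcn, the most abundant, at 451 ± 82.4 and 436 ± 62.9 CPM (SD, n = 4 each). Pdgfra had the largest absolute log2 fold change, -0.30 (edgeR, adjusted p = 0.5). Of 5 ventricular markers, 2 were positive and 3 negative, with Myl2, the most abundant, at 6573 ± 1031 and 6975 ± 1788 CPM (SD, n = 4 each). Myh7 had the largest absolute log2 fold change, -0.59 (edgeR, adjusted p = 0.826). These 3 lists had 0 genes at an unadjusted p under 0.05, beside 11 percent of all genes. The 11 neuronal and neuroendocrine markers summed to 9.13 to 13.1 CPM in HVCN1 null hearts and 8.91 to 11.9 CPM in WT hearts. Of them 3 were tested, and 0 were at an unadjusted p under 0.05. Stmn2, the most abundant, was at 5.89 CPM on average in HVCN1 null hearts, beside 6.8 CPM in the WT group. Dbh had the largest absolute log2 fold change, 0.33 (edgeR, adjusted p = 0.859). Of 7 cardiomyocyte markers, 3 were positive and 4 negative. Myh6, the most abundant, was at 28384 ± 2852 CPM in HVCN1 null hearts, beside 28500 ± 2516 CPM in the WT group (SD, n = 4 each). Actc1 had the largest absolute log2 fold change, -0.51 (edgeR, unadjusted p = 0.00211, adjusted p = 0.105).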
